A study of Mus musculus with 18 samples.

Results

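Myosin heavy chains are the motor subunits of the thick filament and of the contractile bundles of cells outside the sarcomere. The 7 described here, Myh6, Myh7, Myh7b, Myh9, Myh10, Myh11 and Myh14, were taken by name from the 38355 gene identifiers of the count tables, and all 7 passed the filter on low counts that left 14876 genes for testing. They were followed through 18 RNA libraries of mouse left ventricle, together with the ratio of Myh7 to Myh6 in each library. All mice had the (DBA/2J x C3HeB/FeJ)F1 background. The cycD2 Shunt group (n = 5), the cycD2 TAC group (n = 3, replicates 1, 2 and 4) and the cycD2 sham group (n = 5) are labelled as carrying the MHC-cycD2 transgene and as operated on at 8 weeks of age, whereas the WT group (n = 5) was wild type and had no operation. TAC is a banding of the transverse aorta that loads the ventricle with pressure. The Shunt is an opening between the abdominal aorta and the vena cava that loads it with volume. Which sham operation the sham mice had, and the time from surgery to tissue, are not given in the sources used here. MHC in the transgene's name stands for a myosin heavy chain promoter, which drives cyclin D2 in heart muscle cells. The comparison of sham with WT therefore joins the transgene with the operation. An age is recorded here for the operated mice only, so a difference in age from WT cannot be told apart either. No library labelled wild type came from a mouse with a load.

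The heart muscle cell uses a pair of neighbouring genes for its main motor. Myh6 encodes the alpha chain, which has the faster ATPase and is the main chain of the adult mouse ventricle, and Myh7 encodes the slower beta chain, which is the main chain of the fetal mouse ventricle and returns under pressure load. Thyroid hormone is known to raise Myh6 and to lower Myh7. Myh7b is a further sarcomeric chain of low abundance, Myh9, Myh10 and Myh14 encode the non-muscle myosins IIA, IIB and IIC, and Myh11 encodes the chain of smooth muscle. Introns of Myh6, Myh7 and Myh7b carry the microRNAs miR-208a, miR-208b and miR-499, and the long noncoding RNA Mhrt is made from the opposite strand of the Myh7 locus.

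In GRCm38, Myh6 (ENSMUSG00000040752) lies on the minus strand of chromosome 14 from 54941921 to 54966927, and Myh7 (ENSMUSG00000053093) follows on the same strand from 54970684 to 54994626. The windows of 250 bases before to 50 bases after the RefSeq start are shown for these genes, because they moved in opposite directions after TAC. Capitals mark matches to 3 motifs searched: the M-CAT element CATTCC on either strand, which is GGAATG when it lies on the strand opposite the gene, a TATA-like TATANA on the gene's strand, and a spaced pair of thyroid hormone receptor half-sites, AGGNNANNNNAGGNNA, on either strand. Sequences and start sites are RefSeq's for GRCm38.p6.
Myh6 promoter, chr14:54966558-54966857, minus strand: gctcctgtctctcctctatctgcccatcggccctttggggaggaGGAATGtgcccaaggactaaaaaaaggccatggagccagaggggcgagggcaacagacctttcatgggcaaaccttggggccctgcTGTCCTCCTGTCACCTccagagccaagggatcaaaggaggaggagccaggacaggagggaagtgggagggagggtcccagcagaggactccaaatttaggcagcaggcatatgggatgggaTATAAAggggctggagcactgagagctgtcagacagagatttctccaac
Myh7 promoter, chr14:54994577-54994876, minus strand: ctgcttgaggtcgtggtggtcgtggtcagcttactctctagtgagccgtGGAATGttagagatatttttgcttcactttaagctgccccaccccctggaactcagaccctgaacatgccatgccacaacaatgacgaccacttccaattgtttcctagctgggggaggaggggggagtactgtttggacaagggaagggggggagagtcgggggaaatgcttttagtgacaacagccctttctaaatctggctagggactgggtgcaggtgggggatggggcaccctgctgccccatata

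The M-CAT match began at position -206 from the start in the Myh6 window and at -201 in the Myh7 window, and 14.7% of 32851 promoter windows held that motif. The half-site pair was found at -120 in the Myh6 window, and 2.55% of all windows held it. It was not found in the Myh7 window printed, but the window of another RefSeq start of Myh7 had a match, and the Myh7b window had 3. The TATANA letters, present in 18% of windows, were found at position 2 in the Myh6 window printed and not in the Myh7 window printed. The window of the other RefSeq start of Myh7 had matches at -31 and -29. The matches in the printed windows did not overlap each other, and they are matches of letters only.

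The mature microRNAs of the cardiac myosin genes are shown for their seed, bases 2 to 8, in capitals. Each lies inside its host gene, with positions from RefSeq in GRCm38.p6.
mmu-miR-208a-3p (Myh6), chr14:54949072-54949093, minus strand: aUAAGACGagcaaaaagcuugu
mmu-miR-208b-3p (Myh7), chr14:54975710-54975731, minus strand: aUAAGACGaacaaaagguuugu
mmu-miR-499-5p (Myh7b), chr2:155622893-155622913, plus strand: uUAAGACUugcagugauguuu

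The pair miR-208a-3p and miR-208b-3p had the same seed and the same base at 19 of 22 positions. Counted from the 5′ end, the differences from 208a to 208b were G10A, A16G and C18U. The seed of miR-499-5p differed from theirs in its last base.

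The libraries held 19297821 to 30594075 reads counted in genes, and levels are given as counts per 1000000 gene counts (CPM) after scaling. Ccnd2, the cyclin D2 gene, was at 17739 to 22211 CPM in Shunt, 21129 to 30478 CPM in sham and 141 to 189 CPM in WT. It was at 22050 and 25843 CPM in TAC replicates 1 and 4 but at 228 CPM in the library labelled cycD2 TAC replicate 2, so the tests of TAC, in the fit with no covariate, are also given without that library. Y-linked genes were low in all Shunt libraries and in TAC replicates 1 and 2 and high in the others, and the sex of a sample is not in the labels. Only TAC held both states, so fits with the Y-linked level as a covariate take its slope mainly from that split. With that covariate, TAC against sham rests mainly on TAC replicate 4. Calls kept or lost under it therefore do not separate sex from differences between single TAC libraries. The clock gene Arntl was above its counterpart Dbp in all TAC libraries, WT replicates 1 to 3 and sham replicates 1 and 2, and Dbp was above Arntl in the rest, all Shunt libraries among them. The ventricular light chain Myl2 averaged 9016 CPM or more in each group, whereas the atrial light chain Myl7 averaged 60.0 ± 87.6 CPM in Shunt, 88.5 ± 77.8 CPM in TAC, 101 ± 142 CPM in sham and 1.96 ± 3.45 CPM in WT (SD, n = 5, 3, 5 and 5). Nothing says that libraries of a group came from separate mice beyond their being separate samples, so p-values measure their spread, which may be partly technical. In whole tissue, fewer cells of a type and less RNA per cell cannot be told apart.

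Per kilobase of exon, Myh6 was the most abundant of the 7 in every group, with Myh7 next and no overlap between them. Mean Myh6 levels were 4950 CPM per kilobase in Shunt, 3808 in TAC, 5545 in sham and 3950 in WT. Mean Myh7 levels were 308 CPM per kilobase in Shunt, 486 in TAC, 349 in sham and 251.7 in WT. The other 5 chains lay far below these, with group means of 4.66 to 23.1 CPM per kilobase. Of these 5, Myh9 came first in TAC, where it did not overlap Myh14 below it, and Myh14 came first in Shunt, sham and WT, where it overlapped Myh9. The order of these 2 depends on the length used: per kilobase of the longest coding transcript, Myh9 was above Myh14 in those groups too, at 27.6 and 18.3 CPM in Shunt, 26.3 and 18.5 CPM in sham and 26.4 and 21.3 CPM in WT. Myh10 was last in sham and in WT without overlap with its neighbour Myh7b, but in TAC it ranked above Myh11 and Myh7b, with overlap.

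**Figure D1:**
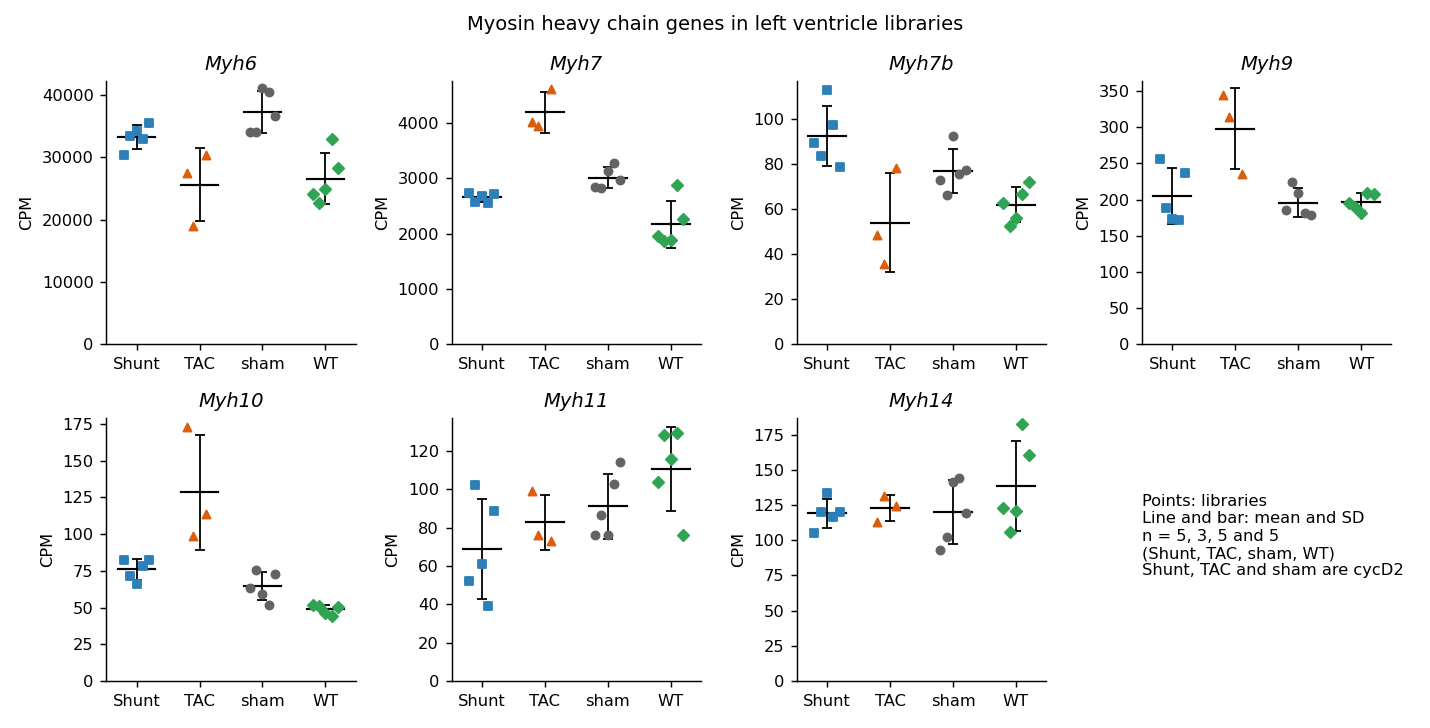
Level of each myosin heavy chain gene in CPM (vertical axes, from 0) in the Shunt, TAC, sham and WT libraries; points are libraries, lines and bars the mean and SD. The 3 TAC libraries lie above all sham libraries for Myh7, Myh9 and Myh10 and below them for Myh6.

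Members of the family passed the test in 3 of the 4 comparisons. In sham against WT, 3 rose (Myh6, Myh7 and Myh10) and none fell, where 28.4% of the 14876 genes tested passed an adjusted p under 0.05, 13.5% higher and 14.9% lower. In TAC against sham, 3 rose (Myh7, Myh9 and Myh10) and Myh6 fell, where 30.9% of all genes passed, 16.4% higher and 14.5% lower. In Shunt against sham none passed edgeR's quasi-likelihood test, where 0.242% of all genes did, 0.108% higher and 0.134% lower. In that comparison 0 of the 7 had an unadjusted p under 0.05, and DESeq2 and limma-voom also called 0. In Shunt against TAC, Myh6 and Myh7b were higher and Myh7, Myh9 and Myh10 lower, where 27.0% of all genes passed, 13.3% higher and 13.6% lower. Against those shares, 3, 4 and 5 of 7 are larger fractions, and that difference was not tested. The same 4 chains were called in TAC against sham when the library labelled cycD2 TAC replicate 2 was left out, where 11.9% of all genes rose and 10.2% fell. In Shunt against TAC, 1 was then higher and 3 were lower, where 8.91% of all genes were higher and 9.49% lower, and Myh6 was no longer called.

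The libraries of the groups did not overlap for 2 of the 7 in sham against WT, for 4 in TAC against sham, for 1 in Shunt against sham and for 3 in Shunt against TAC. Over all genes these shares were 22.3%, 28.1%, 4.09% and 24.7%. The median log2 fold change of the 7 was 0.31 in sham against WT, 0.03 in TAC against sham, -0.01 in Shunt against sham and -0.27 in Shunt against TAC. Over all genes tested the medians were -0.01, 0.01, 0.00 and -0.01.

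**Figure D2:**
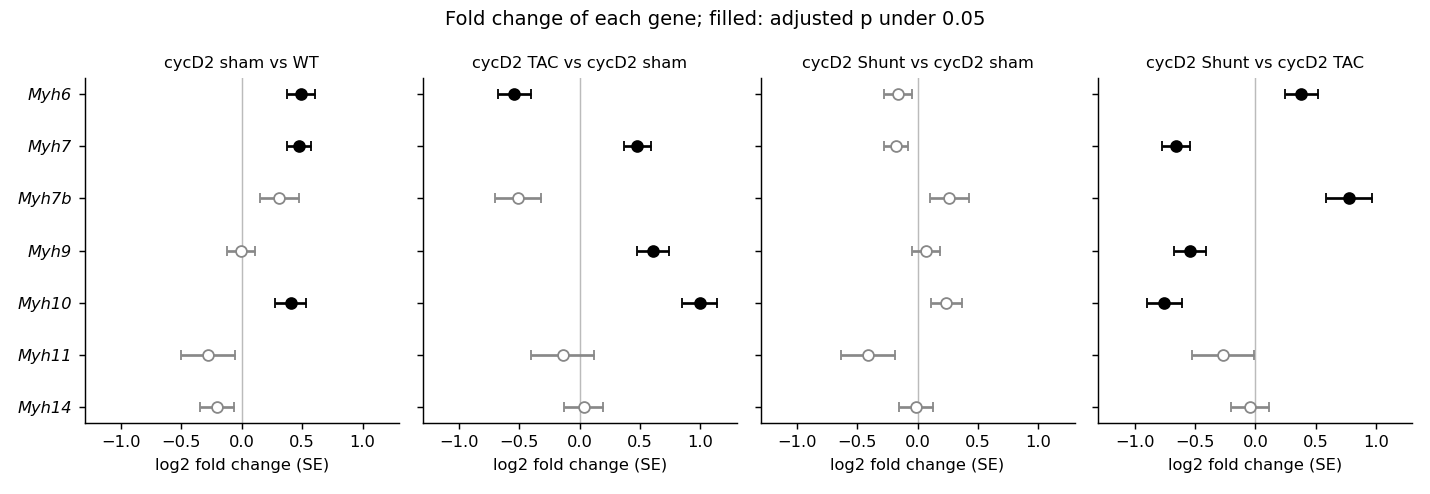
Log2 fold change of each gene (horizontal axes, bars are the SE of the fit) in the 4 comparisons; filled points had an adjusted p under 0.05. Myh6 and Myh7 are both higher in sham than in WT and have opposite signs in TAC against sham, and no point is filled in Shunt against sham.

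Myh6, the alpha chain, was higher in cycD2 sham than in WT and lower in TAC than in sham. The sham libraries had 34099, 34023, 41130, 40530 and 36695 CPM of Myh6, against 24180, 22626, 24850, 32955 and 28225 CPM in WT. Every sham library was above every WT library (log2 fold change 0.49, SE 0.12, adjusted p = 0.00446). TAC replicates 1, 2 and 4 had 27498, 19050 and 30292 CPM, all below the lowest sham library, and Myh6 fell by 0.54 (SE 0.14, adjusted p = 0.00595) on the log2 scale. The lowest value was that of the library labelled cycD2 TAC replicate 2, and without it the log2 fold change was -0.37 (adjusted p = 0.0416). TAC replicates 1 and 4 lay within the WT range and replicate 2 below it. Of 10 heart muscle cell markers, none rose and 6 fell in TAC against sham, where 14.5% of all genes fell. Their summed level was 49117 to 71593 CPM in TAC and 66970 to 77937 CPM in sham, and their part in the fall of Myh6 was not tested. Of the 10, 3 fell when the library labelled cycD2 TAC replicate 2 was left out, a fit in which a smaller share of all genes fell too, as given above.

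With the Y-linked level as a covariate the log2 fold change of Myh6 in TAC was -0.31 (adjusted p = 0.419), and among libraries having Arntl above Dbp it came to -0.41 (adjusted p = 0.185), so the call was lost in both. That covariate lowered the share of all genes called in TAC against sham to 1.93% higher and 1.32% lower, and none of the 10 heart muscle cell markers was then called. With the Arntl to Dbp difference as a covariate in all libraries it was -0.37 (adjusted p = 0.0651). TAC replicate 4 had high Y-linked genes like the sham libraries and was below the sham range of Myh6. For sham against WT the log2 fold change was 0.52 (adjusted p = 0.112) where Arntl was above Dbp and 0.38 (adjusted p = 0.0313) where Dbp was above Arntl. In Shunt, Myh6 was at 30289 to 35534 CPM (median 33473), which overlapped the sham range (log2 fold change -0.16, SE 0.12, adjusted p = 0.547). Shunt was above TAC (log2 fold change 0.38, SE 0.14, adjusted p = 0.0464), a call that was lost without the library labelled cycD2 TAC replicate 2 (log2 fold change 0.20, adjusted p = 0.268), without TAC replicate 1 (0.43, adjusted p = 0.0601) and without any of Shunt replicates 2 to 5 (0.35 to 0.38). It was also lost with the Arntl to Dbp difference as a covariate (0.16, adjusted p = 0.509), with a covariate from the atrial genes Myl7, Myl4 and Sln (0.35, adjusted p = 0.0649) and with the 2 groups alone (0.38, adjusted p = 0.119).

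Cyclin D2 RNA can be set beside Myh6 within each library, since the transgene uses a myosin heavy chain promoter. Ccnd2 counts were 53.9% to 73.0% of Myh6 counts in Shunt, 80.2% and 85.3% in TAC replicates 1 and 4, 51.4% to 89.4% in sham and 0.498% to 0.836% in WT. In the library labelled cycD2 TAC replicate 2 the share was 1.198%, just above WT. Whether the transgene carries exons of Myh6 is not given in the sources used here, so transgene reads counted as Myh6, if any, cannot be told apart from those of the gene itself.

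Myh7, the beta chain, rose in sham against WT and was highest in TAC. Its levels were 2839, 2828, 3135, 3269 and 2977 CPM in sham replicates 1 to 5, against 1948, 1861, 1892, 2878 and 2265 CPM in WT. WT replicate 4 lay within the sham range and the other 4 WT libraries below it (log2 fold change 0.47, SE 0.10, adjusted p = 0.00174). In TAC the levels were 4019, 3939 and 4615 CPM, above every other library of the 18. TAC exceeded sham by 0.48 (SE 0.11, adjusted p = 0.00375) on the log2 scale. The difference was 0.52 (adjusted p = 0.00704) without the library labelled cycD2 TAC replicate 2, 0.61 (adjusted p = 0.0470) with the Y-linked covariate and 0.56 (adjusted p = 0.0186) where Arntl was above Dbp. For sham against WT it was 0.59 (adjusted p = 0.0207) where Arntl was above Dbp and 0.30 (adjusted p = 0.0717) where Dbp was above Arntl.

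The Shunt libraries had 2741, 2574, 2684, 2558 and 2724 CPM of Myh7, each below the lowest sham library. That separation did not pass the test across all genes (log2 fold change -0.18, SE 0.10, adjusted p = 0.408). Sex by the Y-linked genes and the Shunt group cannot be told apart in this comparison. With the Y-linked covariate the estimate was 0.06 (adjusted p = 0.996), but its slope came mainly from the split within TAC, so the turned sign is not informative on Shunt. Shunt was below TAC without overlap (log2 fold change -0.66, SE 0.11, adjusted p = 0.00046), and by -0.70 (adjusted p = 0.00124) without the library labelled cycD2 TAC replicate 2. Clock state by Arntl and Dbp was opposite in all Shunt and all TAC libraries and cannot be told apart from the kind of load.

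The ratio of Myh7 to Myh6 counts, which does not depend on depth or scaling, separated TAC from the other groups. It was 14.6%, 20.7% and 15.2% in TAC replicates 1, 2 and 4, against 8.33%, 8.31%, 7.62%, 8.07% and 8.11% in sham replicates 1 to 5. In Shunt it was 9.05%, 7.69%, 7.83%, 7.78% and 7.67%, and in WT it was 8.06%, 8.22%, 7.62%, 8.73% and 8.02%. No TAC library overlapped any other group, whereas the Shunt, sham and WT ranges lay over each other. Group means were 8.00% ± 0.589 in Shunt (SD, n = 5), 16.8% ± 3.34 in TAC (SD, n = 3), 8.09% ± 0.285 in sham (SD, n = 5) and 8.13% ± 0.404 in WT (SD, n = 5).

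On the log2 scale the ratio was 1.04 higher in TAC than in sham, a fold of 2.06. The two-sided exact permutation test gave p = 0.0357, the smallest that 3 against 5 libraries allow, and 0.0714 after adjustment over the 4 comparisons. Shunt minus TAC was -1.06, with the same exact p and adjusted p. The difference of sham from WT was -0.01 (exact p = 0.913, adjusted 0.913) and that of Shunt from sham was -0.02 (exact p = 0.770, adjusted 0.913). Without the library labelled cycD2 TAC replicate 2, which had the highest ratio and the lowest Myh6, the difference of TAC from sham was 0.88 and that of Shunt from TAC was -0.90. Where Arntl was above Dbp, TAC exceeded sham by 1.00. In sham against WT the log2 fold changes of Myh6 and Myh7 were 0.49 and 0.47, and in TAC against sham they were -0.54 and 0.48.

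**Figure D3:**
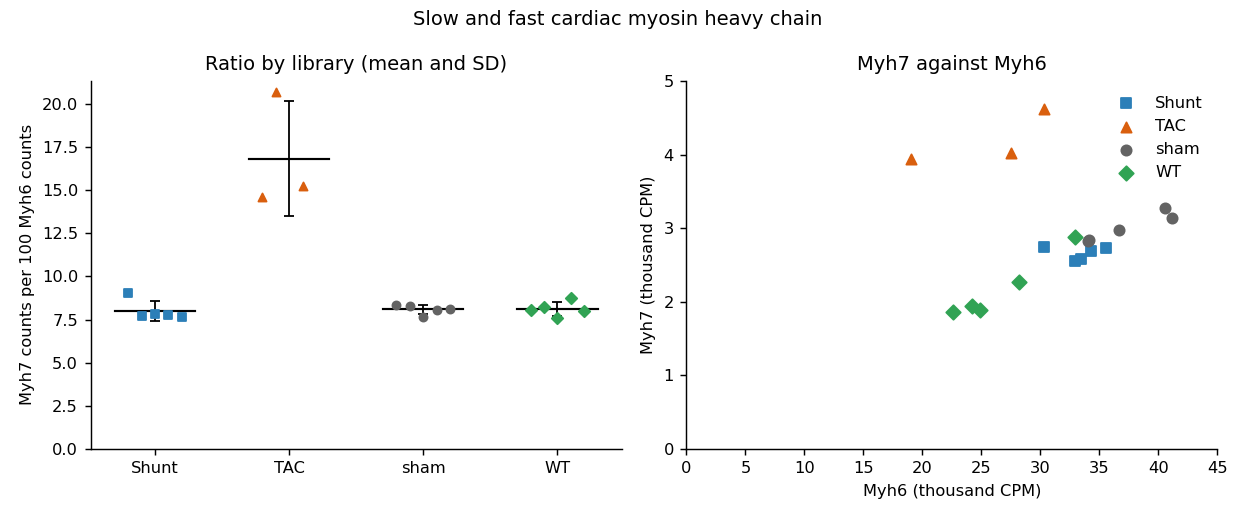
Myh7 counts per 100 Myh6 counts in each library (left, with mean and SD) and Myh7 against Myh6 in units of 1000 CPM (right), both axes from 0. The TAC libraries have 14.6% to 20.7% of Myh7 relative to Myh6, and all other libraries have 7.62% to 9.05%.

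Of the RNAs that share the cardiac myosin locus, Mhrt and the Mir208b entry were lower in TAC, where Myh7 was higher. Mhrt, the antisense noncoding RNA, had 26.3, 17.5 and 27.7 CPM in TAC replicates 1, 2 and 4, against 43.1 to 50.03 CPM (median 48.2) in sham. All TAC libraries were below all sham libraries, and Mhrt fell by 0.98 (SE 0.12, adjusted p = 2.46e-05) on the log2 scale, or by 0.80 without the library labelled cycD2 TAC replicate 2 (adjusted p = 5.15e-05). As a share of Myh7 counts, Mhrt was 0.444% to 0.655% in TAC and 1.39% to 1.70% in sham. It rose in sham against WT by 0.61 (SE 0.10, adjusted p = 0.00027), and in Shunt it was at 38.4 to 44.5 CPM, above TAC by 0.77 (SE 0.12, adjusted p = 0.000224), or by 0.59 (adjusted p = 0.000695) without that library.

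Mhrt shares 484 exon bases with Myh7, which is 39.9% of the exon bases of Mhrt and 5.62% of those of Myh7. The library kit does not keep the strand, so reads of Myh7 and of Mhrt in the shared bases, and reads of Myh7 introns inside Mhrt exons, cannot be told apart. The share of reads ambiguous between genes was 1.81% to 2.16% in TAC and 1.47% to 1.54% in sham. Its part in the level of Mhrt was not tested.

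The Mir208b entry, whose precursor lies in an intron of Myh7 and shares no exon base with another gene, had 34, 29 and 46 counts in TAC replicates 1, 2 and 4. The sham libraries had 125, 122, 121, 156 and 113 counts, and the WT libraries 76, 69, 76, 66 and 79. TAC lay below both other groups, and the fall against sham was by 1.89 (SE 0.21, adjusted p = 1.01e-05) on the log2 scale. The log2 fold change was -1.73 (adjusted p = 8.73e-05) without the library labelled cycD2 TAC replicate 2. Mir208b also rose in sham against WT (log2 fold change 0.66, SE 0.16, adjusted p = 0.00556), and it was higher in Shunt, with 112 to 210 counts, than in TAC (log2 fold change 1.79, SE 0.21, adjusted p = 2.31e-05), by 1.63 (adjusted p = 0.000215) without that library. The rises of Mir208b and Mhrt in sham against WT were no longer called where Arntl was above Dbp (Mir208b 0.45, adjusted p = 0.254, Mhrt 0.53, adjusted p = 0.0890). With the Y-linked covariate the log2 fold change in TAC was -1.49 (adjusted p = 0.0164) for Mir208b and -0.76 (adjusted p = 0.0313) for Mhrt. These counts come from a long-RNA library and are reads of the host region, not a measure of the mature miR-208b printed above. Mir208a had at most 2 counts and Mir499 had 0 counts in every library, where a count of 0 allows up to 3 counts per library by counting error alone.

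**Figure D4:**
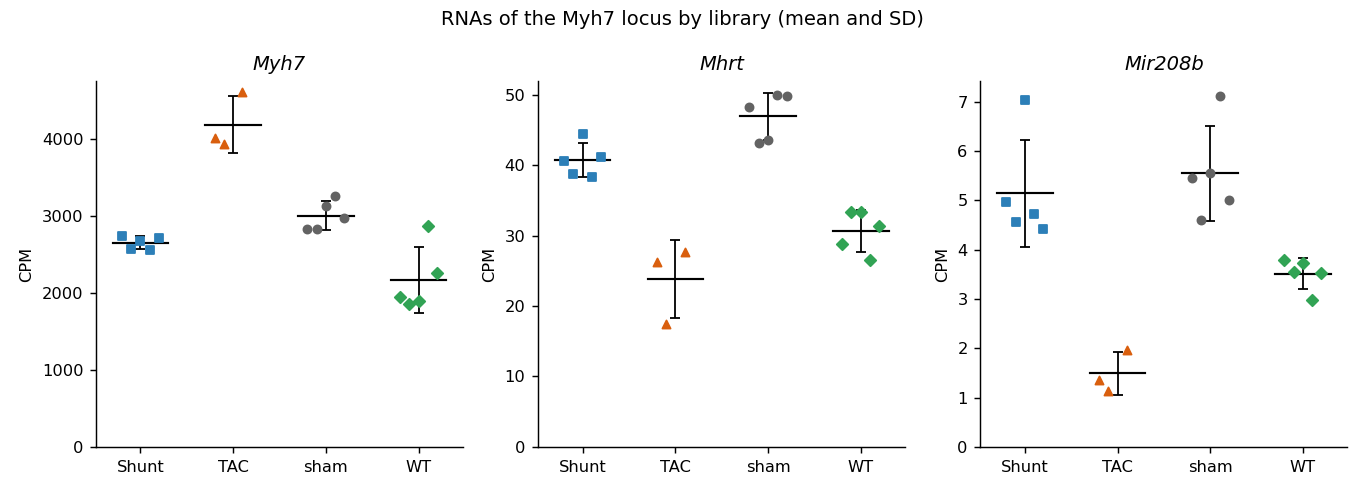
Myh7, Mhrt and the Mir208b entry in CPM (vertical axes, from 0) in the Shunt, TAC, sham and WT libraries; points are libraries, lines and bars the mean and SD. The TAC libraries are the highest for Myh7 and lie below all Shunt and sham libraries for Mhrt and Mir208b.

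Myh7b, the further sarcomeric chain (ENSMUSG00000074652, chromosome 2, 155611212 to 155634307, plus strand), differed between Shunt and TAC. It was at 89.2, 83.3, 113, 97.1 and 78.7 CPM in Shunt, against 48.4, 35.5 and 78.2 CPM in TAC. The groups did not overlap, though TAC replicate 4 came within 1 CPM of the lowest Shunt library (log2 fold change 0.77, SE 0.19, adjusted p = 0.00688). Without the library labelled cycD2 TAC replicate 2 it was 0.54 (adjusted p = 0.0413). With the Arntl to Dbp difference as a covariate the log2 fold change was 0.49 (adjusted p = 0.142). Sham was at 66.2 to 92.4 CPM, and TAC against sham missed the threshold (log2 fold change -0.51, SE 0.19, adjusted p = 0.0510). With the replicate number as a block it was -0.50 and passed (adjusted p = 0.0309), as it did with DESeq2 (-0.52, adjusted p = 0.0232). Without TAC replicate 4, which lies inside the sham range, it was -0.88 (adjusted p = 0.000568), and without the library labelled cycD2 TAC replicate 2 it was -0.28 (adjusted p = 0.278). There were 2.22 to 3.29 Myh7b counts per 1000 of Myh6 in Shunt, 1.76 to 2.58 in TAC, 1.86 to 2.25 in sham and 2.02 to 2.59 in WT.

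The non-muscle chains Myh9 and Myh10 rose in TAC. Myh9 (ENSMUSG00000022443, chromosome 15, 77760587 to 77842175, minus strand), widely expressed outside muscle cells, was at 345, 314 and 236 CPM in TAC replicates 1, 2 and 4, against 186, 224, 209, 182 and 179 CPM in sham. All TAC libraries were above all sham libraries, TAC replicate 4 by the least (log2 fold change 0.61, SE 0.13, adjusted p = 0.00211). With the Y-linked covariate the log2 fold change was 0.27 (adjusted p = 0.456), where Arntl was above Dbp it was 0.54 (adjusted p = 0.0538), and without the library labelled cycD2 TAC replicate 2 it was 0.57 (adjusted p = 0.0131). Shunt libraries ranged from 172 to 256 CPM with replicates 1 and 5 highest, and Shunt was lower than TAC (log2 fold change -0.54, SE 0.13, adjusted p = 0.00589), by -0.50 (adjusted p = 0.030) without that library. Sham and WT means were 196 ± 19.5 and 197 ± 11.9 CPM (SD, n = 5 each).

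Myh10 (ENSMUSG00000020900, chromosome 11, 68691559 to 68816632, plus strand), which the mouse embryo needs for normal heart development, had the largest fold change of the 7 in TAC. It was at 173, 98.8 and 114 CPM in TAC replicates 1, 2 and 4, against 63.0, 75.5, 59.5, 51.9 and 72.5 CPM in sham. No TAC library overlapped sham (log2 fold change 0.99, SE 0.14, adjusted p = 8.61e-05). The log2 fold change was 1.15 (adjusted p = 5.09e-05) without the library labelled cycD2 TAC replicate 2, 0.82 (adjusted p = 0.0457) with the Y-linked covariate and 0.89 (adjusted p = 0.0329) where Arntl was above Dbp. Sham was in turn above WT, whose libraries had 51.7, 50.7, 46.4, 44.2 and 50.5 CPM, without overlap (log2 fold change 0.40, SE 0.13, adjusted p = 0.0242). That call was lost without WT replicate 3 (0.39, adjusted p = 0.0520), WT replicate 4 (0.37, adjusted p = 0.0564) or sham replicate 5 (0.36, adjusted p = 0.0616). It was also lost where Arntl was above Dbp (0.49, adjusted p = 0.165), where Dbp was above Arntl (0.39, adjusted p = 0.0887) and with the atrial covariate (0.40, adjusted p = 0.0775). In Shunt Myh10 was at 66.0 to 82.4 CPM, lower than TAC (log2 fold change -0.76, SE 0.14, adjusted p = 0.00104) and overlapping sham (log2 fold change 0.24, SE 0.13, adjusted p = 0.394). The difference from TAC was -0.91 (adjusted p = 0.000446) without the library labelled cycD2 TAC replicate 2.

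Fibroblast markers moved with these chains in TAC. Of 9 fibroblast markers, 8 rose in TAC against sham, where 16.4% of all genes were called higher, and their summed level was 1365 to 2288 CPM in Shunt, 3035 to 7362 CPM in TAC, 1282 to 2382 CPM in sham and 1603 to 2118 CPM in WT. No marker of the list was at 0 in every library. Col1a2, a chain of type I collagen, rose by 1.96 (SE 0.27, adjusted p = 8.14e-05), and 5 of 8 endothelial and 3 of 4 cell cycle markers rose as well, with 5 of 7 pericyte markers higher and 1 lower. The log2 fold change of Col1a2 was 1.60 (adjusted p = 0.000719) without the library labelled cycD2 TAC replicate 2. In that fit 6 fibroblast, 2 endothelial, 4 cell cycle and 5 pericyte markers rose and 1 pericyte marker fell. With the Y-linked covariate the log2 fold change of Col1a2 was 1.15 (adjusted p = 0.0755). No fibroblast or cell cycle marker was then called, 1 endothelial marker rose, and 1 pericyte marker rose and 1 fell. In both of these fits the share of all genes called was smaller too, as given above. Between sham and WT, where Myh10 rose, no fibroblast marker was called, and 4 of 8 endothelial and 5 of 7 pericyte markers fell, where 14.9% of all genes fell. With the atrial covariate 2 of each fell and 1 pericyte marker rose. How many of all genes were called in that fit is not given here. The part of these cells in the levels of Myh9 and Myh10 was not tested. Per library the count of Myh10 was 32.2% to 45.5% of that of Myh9 in Shunt, 31.4% to 50.2% in TAC, 28.5% to 40.6% in sham and 21.2% to 26.8% in WT.

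Myh14 (ENSMUSG00000030739, chromosome 7, 44605803 to 44670843, minus strand), which encodes non-muscle myosin IIC, passed edgeR's test in none of the 4 comparisons, and without the library labelled cycD2 TAC replicate 2 in neither comparison with TAC. Its means were 119 ± 10.2 CPM in Shunt, 123 ± 9.04 CPM in TAC, 120.1 ± 22.9 CPM in sham and 139 ± 31.8 CPM in WT (SD, n = 5, 3, 5 and 5). Within WT and within sham it was higher in the libraries with Dbp above Arntl. WT replicates 4 and 5, which had Dbp above Arntl, had 183 and 161 CPM, and WT replicates 1 to 3 had 123, 106 and 121 CPM. Sham replicates 3 to 5 had 141, 145 and 119 CPM, and sham replicates 1 and 2 had 93.1 and 102 CPM. With the Arntl to Dbp difference as a covariate the log2 fold change of Myh14 was -0.33 (adjusted p = 0.0087) in sham against WT, 0.38 (adjusted p = 0.0219) in TAC against sham and -0.47 (adjusted p = 0.0166) in Shunt against TAC. The levels of Myh6 and Myh7 given above also did not overlap between the clock states within WT or within sham. Nor did Myh7b, with 66.7 and 72.1 CPM in WT where Dbp was above Arntl and 52.3 to 62.5 CPM otherwise. In sham it had 75.5 to 92.4 CPM where Dbp was above Arntl and 66.2 and 72.7 CPM otherwise. Myh9 overlapped within sham, and Myh10 and Myh11 overlapped within both groups. How many of all genes were separated in this way is not given here.

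Myh11 (ENSMUSG00000018830, chromosome 16, 14194535 to 14291372, minus strand), the smooth muscle chain, also passed in none of the comparisons. It averaged 68.6 ± 26.1 CPM in Shunt (n = 5), 82.6 ± 14.4 CPM in TAC (n = 3), 91.1 ± 17.0 CPM in sham (n = 5) and 111 ± 21.9 CPM in WT (n = 5, all SD). The Shunt libraries were spread widest, at 52.0, 102, 61.0, 39.3 and 88.8 CPM, and the groups overlapped in every comparison. Sham was set against WT (log2 fold change -0.28, SE 0.22, adjusted p = 0.377), TAC against sham (log2 fold change -0.14, SE 0.26, adjusted p = 0.718), Shunt against sham (log2 fold change -0.41, SE 0.22, adjusted p = 0.411) and Shunt against TAC (log2 fold change -0.27, SE 0.26, adjusted p = 0.470). The comparisons with TAC, leaving out the library labelled cycD2 TAC replicate 2, gave -0.08 (adjusted p = 0.882) and -0.33 (adjusted p = 0.497). Of 7 smooth muscle markers 2 rose in TAC against sham, the actin-binding proteins Synpo2 and Cnn1, where 16.4% of all genes rose. Without that library Synpo2 rose (0.70, adjusted p = 2e-04) and Cnn1 was not called (0.93, adjusted p = 0.224), and with the Y-linked covariate neither was called. The summed level of the 7 was 863 to 1845 CPM in TAC and 754 to 1421 CPM in sham.

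The skeletal and developmental chains Myh1, Myh2, Myh3, Myh4, Myh8, Myh13 and Myh15 had at most 20 counts in any library. Of these 7, Myh2 and Myh15 had enough counts for testing, and neither was called in any comparison, nor in those with TAC without the library labelled cycD2 TAC replicate 2. Myh2, a fast skeletal chain, had an adjusted p of 0.166 or more in each. The fast skeletal light chain Mylpf was higher in sham than in WT, at 3.09 ± 0.728 CPM and 0.612 ± 0.232 CPM (SD, n = 5 each; log2 fold change 2.34, SE 0.43, adjusted p = 0.000783). Mylpf is also on the list of skeletal muscle markers, of which all 5 tested rose in sham against WT, where 13.5% of all genes rose. Their list had summed levels of 21.7 to 36.4 CPM in sham and 1.76 to 3.44 CPM in WT.

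Light chains, which bind the necks of the heavy chains, were read from 2 lists. Of 6 muscle light chains the ventricular ones, Myl2 and Myl3, were called in none of the comparisons. Myl1 rose in TAC against sham (log2 fold change 1.31, SE 0.37, adjusted p = 0.0132), a call that was lost without TAC replicate 1 (0.88, adjusted p = 0.112) and with the Y-linked covariate (0.69, adjusted p = 0.551), and the other 5 were not called. The log2 fold change of Myl1 was 1.41 (adjusted p = 0.0285) without the library labelled cycD2 TAC replicate 2. Myl4 (log2 fold change 4.31, SE 0.88, adjusted p = 0.00225), Myl7 (log2 fold change 5.75, SE 1.97, adjusted p = 0.0409) and Mylpf rose in sham against WT. Myl4 and Myl7 are atrial chains, and of the 6 atrial markers tested 4 rose and 1, the natriuretic peptide gene Nppa, fell, with a median log2 fold change of 4.56. Of all genes 13.5% rose and 14.9% fell in that comparison. The summed level of all 7 was 117 to 839.7 CPM in sham and 146 to 359.9 CPM in WT. With the atrial covariate, which contains Myl7 itself, the sign of Myl7 turned (log2 fold change -0.10, adjusted p = 0.802), and with limma-voom Myl7 was not called (adjusted p = 0.443).

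Of 5 smooth and non-muscle light chains, partners of Myh9, Myh10 and Myh11, 3 rose in TAC against sham and none fell, where 16.4% of all genes rose and 14.5% fell. They were Myl12a (log2 fold change 0.86, SE 0.13, adjusted p = 0.00016), Myl12b (log2 fold change 0.68, SE 0.11, adjusted p = 0.000153) and Myl6 (log2 fold change 0.50, SE 0.15, adjusted p = 0.0172). With the Y-linked covariate Myl12a (adjusted p = 0.0165) and Myl12b (adjusted p = 0.0323) stayed called and Myl6 did not (0.49, adjusted p = 0.266). The median of the 5 was 0.68, against 0.01 over all genes. Leaving out the library labelled cycD2 TAC replicate 2, the log2 fold changes were 0.96 for Myl12a, 0.69 for Myl12b and 0.51 for Myl6 (adjusted p at most 0.0438), and the 3 were again called. In Shunt against TAC the 3 were lower, with and without that library. In sham against WT 2 rose (Myl6b and Myl9) and 2 fell (Myl12a and Myl12b), where 13.5% of all genes rose and 14.9% fell, and with the atrial covariate only Myl6b of these was called.

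In the thick filament list, 3 of the 15 genes tested rose in TAC against sham and none fell, where 16.4% of all genes rose. They were Mybpc2 (log2 fold change 1.84, SE 0.29, adjusted p = 0.000256), Mybpc3 (log2 fold change 0.50, SE 0.11, adjusted p = 0.00324) and Myom3 (log2 fold change 1.75, SE 0.27, adjusted p = 0.000141), which encode the fast skeletal and the cardiac myosin-binding protein C and an M-band protein. The median of the list was -0.07. When the library labelled cycD2 TAC replicate 2 was left out, the log2 fold changes were 1.88 for Mybpc2, 0.56 for Mybpc3 and 1.64 for Myom3 (adjusted p at most 0.00452). Under the Y-linked covariate Mybpc2 (2.22, adjusted p = 0.00987) and Mybpc3 (0.65, adjusted p = 0.0399) stayed called and Myom3 did not (1.40, adjusted p = 0.0598). In sham against WT 3 rose, among them the myosin chaperone Unc45b (log2 fold change 0.51, SE 0.11, adjusted p = 0.00233), and 3 fell, among them Mybpc3 (log2 fold change -0.51, SE 0.10, adjusted p = 0.00117).

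Of a list of heart muscle genes known to respond to thyroid hormone, other than Myh6 and Myh7, most were lower in TAC. The list is not split by whether the hormone raises or lowers a gene, so the falls are not a measure of hormone response. Of 8 tested, 6 fell against sham and none rose, where 14.5% of all genes fell, and their median log2 fold change was -0.73, against 0.01 over all genes. Atp2a2, the calcium pump of the sarcoplasmic reticulum, fell by 0.70 (SE 0.10, adjusted p = 6.15e-05), and its inhibitor Pln by 0.62 (SE 0.09, adjusted p = 0.000118). Slc2a4, the insulin-responsive glucose transporter, fell by 0.75 (SE 0.12, adjusted p = 0.000217) and the potassium channel gene Kcnd2 by 1.23 (SE 0.21, adjusted p = 0.000353). Without the library labelled cycD2 TAC replicate 2, 5 of the 8 fell with a median of -0.58: these 4 remained, and the beta-1 adrenergic receptor gene Adrb1 was lost (-0.49, adjusted p = 0.201). Of the 6, 2 remained called with the Y-linked covariate, Atp2a2 and Kcnd2. Pln (-0.44, adjusted p = 0.0691), Slc2a4 (-0.67, adjusted p = 0.0666), the pacemaker channel gene Hcn4 (-0.93, adjusted p = 0.284) and Adrb1 (-0.17, adjusted p = 0.840) were then not called. Of the 8, 3 rose and 1 fell in sham against WT, where 13.5% of all genes rose and 14.9% fell, and with the atrial covariate none rose and 1 fell. None passed in Shunt against sham. Pln is also 1 of the heart muscle cell markers counted above.

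Among 26 tested regulators of cardiac myosin genes, 2 rose and 9 fell in TAC against sham, where 16.4% of all genes rose and 14.5% fell. In the comparison of sham with WT 10 rose and 1 fell, where 13.5% of all genes rose and 14.9% fell, and with the atrial covariate 5 rose and 1 fell. In TAC, 2 rose and 7 fell when the library labelled cycD2 TAC replicate 2 was left out, Gata6 (-0.25, adjusted p = 0.208) and Sox6 (-0.33, adjusted p = 0.144) no longer being called. Under the Y-linked covariate 1 of the 9 still fell and neither of the 2 rises was called. Thrb, the thyroid hormone receptor beta gene, was at 25.3 ± 0.658 CPM in TAC (SD, n = 3), against 42.0 ± 2.94 CPM in sham (SD, n = 5), and fell by 0.73 (SE 0.09, adjusted p = 2.83e-05). Mef2a and Tbx5, transcription factors of the heart muscle cell, fell by 0.63 (SE 0.10, adjusted p = 0.000207) and by 0.90 (SE 0.15, adjusted p = 0.000304). The thyroid hormone transporter gene Slc16a10 fell by 0.66 (SE 0.11, adjusted p = 0.000364). Without that library the log2 fold changes were -0.76 for Thrb, -0.55 for Mef2a, -0.76 for Tbx5 and -0.57 for Slc16a10 (adjusted p at most 0.00387). The 1 gene still called with the Y-linked covariate was Thrb (-0.78, adjusted p = 0.0112), while Mef2a (-0.56, adjusted p = 0.0661), Tbx5 (-0.58, adjusted p = 0.146) and Slc16a10 (-0.50, adjusted p = 0.127) were not called. In sham against WT, Tbx5 rose by 0.90 (SE 0.13, adjusted p = 9.08e-05) and Gata6, another cardiac transcription factor, by 0.66 (SE 0.12, adjusted p = 0.000429).

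The genes whose log2 CPM most resembled each chain over the 18 libraries were found among 11454 protein-coding genes by Pearson r, as a description in which libraries share group, clock state and depth. For Myh6 the nearest were Fto (0.965), Tubgcp2 (0.956) and Gart (0.947). Those nearest to Myh7 were Cbx6 (0.916), Ubxn1 (0.905) and Pcgf2 (0.904), and those nearest to Myh7b were Zcchc3 (0.913), Rnf207 (0.913) and Chd2 (0.911). Next to Myh9 stood Kctd11 (0.949), the actin crosslinker gene Actn4 (0.945) and the membrane-actin linker gene Msn (0.942). Myh10 was nearest to Ccdc136 (0.950), Ppm1e (0.949) and Tor3a (0.947), and Myh11 to the smooth muscle gene Lmod1 (0.941), Susd5 (0.914) and Kcnab1 (0.899). Myh14 was nearest to Ddrgk1 (0.877), Xpc (0.876) and Nqo1 (0.874). On deviations from group means, which take out the group differences, the nearest gene was Tubgcp2 for Myh6 (0.940), Ubb for Myh7 (0.912), Wfikkn2 for Myh7b (0.920), Tes for Myh9 (0.951), Enah for Myh10 (0.932), Tagln for Myh11 (0.934) and Cln3 for Myh14 (0.987). Myh6 and Myh7 themselves had r = 0.199 over the libraries and 0.766 on deviations from group means.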

How the data were processed

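Left ventricular RNA of 18 mouse libraries was sequenced with the TruSeq RNA v2 kit, in which strand is lost. What the authors deposited are raw counts for each Ensembl gene and library, without normalisation. The submitters' processing notes name HTSeq 0.6.1p1, STAR 2.3.0e, DESeq2 1.8, CASAVA 1.8.2, SAMtools 0.1.19 and FastQC, and the builds GRCm38 and mm10. The annotation release, the strand setting and the role of each tool are not given in the sources used here. HTSeq by default leaves reads that align to several places or overlap more than 1 gene out of gene counts, so reads identical between Myh6 and Myh7 would be in neither. Each table closed with 5 summary lines, which were left out of depths and tests: reads with no feature were 13.6% to 22.8% and reads not uniquely aligned 37.6% to 45.9%. GENCODE M21 gave symbols, positions and exon lengths for 36602 of 38355 identifiers. Depth was 19297821 to 30594075 gene counts, and limits from counting cover counting error only.

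Genes with low counts were removed with filterByExpr (minimum count 10). The counts were scaled by TMM and fitted with edgeR 4.0.16 in R 4.3.3 (robust quasi-likelihood) over all 18 libraries with 1 mean per group. The common biological coefficient of variation came to 0.160. Genes with a Benjamini-Hochberg adjusted p under 0.05, over all 14876 genes of a comparison, were called. Each SE was taken as |log2 fold change| divided by the root of the F statistic. The log2 ratio of Myh7 to Myh6 counts was compared with a two-sided exact permutation test, adjusted over 4 comparisons. On simulated data with known changes, 72.2% to 83.3% of 2-fold changes were called.

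Samples were grouped by genotype and treatment in the labels. Libraries of a group differed by a chi-square of at least 7.08 per gene, so none was counted as a duplicate. Pairing by replicate number was checked by the correlation of residuals. For TAC and sham it was 0.129, 0.151 and 0.157, over 0.1 in each pair, so the block is given there where it changed a call; in each other comparison at least 1 pair was below 0.1. The members, the lists and the tests were chosen with earlier results of these data known. Beside the 7 chains, the genes that could be named were up to 4 per list and comparison by smallest p, all muscle light chains, skeletal chains and locus RNAs, and the 3 genes most like each chain by either measure. The counts of the list of light chain kinases and phosphatase genes are not reported here.

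Alternatives were DESeq2 1.42.0, limma-voom (limma 3.58.1), other scaling factors, other filters on low counts, the replicate block, covariates from Y-linked, clock and atrial genes, each pair of groups alone, and leaving out each library. Fits within a clock state, and the counts of listed genes under covariates and without TAC replicate 2, were chosen after seeing the data. The share of all genes called with the atrial covariate is not given here, so counts with that covariate cannot be set against it.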

Additional observations from a re-analysis of the deposited data

Results flagged for a closer look

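The ratio of Myh7 to Myh6 in Shunt replicate 1 stood apart from its group. Its log2 ratio was -3.47, and the other 4 Shunt libraries lay between -3.71 and -3.67, so that the gap to the nearest was 0.87 of the whole range of the group. In that library Myh6 was the lowest of the 5 Shunt values at 30289 CPM and Myh7 the highest at 2741 CPM. All TAC libraries had a higher ratio, the lowest at 14.6% against 9.05% here. It was the single case among 24 groups of libraries checked for a sample far from the others, and chance gives about 1 such case in 20 groups. The TAC group, with 3 libraries, was too small for this check and was not among them.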

How the results depend on the processing

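Of the counts of chains called and the Myh7 to Myh6 ratios, 127 values under other settings were close to those reported. For ratios this meant the same sign and the same side of the threshold. For counts it meant a total, of either direction, within 1.5 times of that reported. Another 4 counts were lower by more than that and 5 ratios changed sign. Among the 127 were lower counts too: with the atrial covariate 2 chains were called in sham against WT, and 4 were called in Shunt against TAC with the Arntl to Dbp covariate (0 higher, 4 lower), the atrial covariate or the 2 groups alone. Directions changed as well with the Arntl to Dbp covariate. It gave 4 higher and 0 lower in TAC against sham (reported 3 and 1), and 3 higher and 1 lower in sham against WT (reported 3 and 0). For 3 against 5 libraries the exact test allows no p under 0.0357 before adjustment, so ratios in comparisons with TAC could hardly cross the threshold. In sham against WT the count was 1 within each clock state, and in TAC against sham it was 2 with the Y-linked covariate and 2 where Arntl was above Dbp, each fit within a clock state holding fewer libraries. The share of all genes called within a clock state is not given here, so those lower counts cannot be set against it. Leaving out a library gave 2 to 3 chains called in sham against WT, 4 to 5 in TAC against sham, 0 in Shunt against sham and 4 to 5 in Shunt against TAC. The log2 ratio changed sign in sham against WT by medians (0.0098) and where Arntl was above Dbp (0.063), and in Shunt against sham where Dbp was above Arntl (0.010). Without a library it ranged from -0.030 to 0.019 in sham against WT, from 0.88 to 1.14 in TAC against sham, from -0.063 to -0.0028 in Shunt against sham and from -1.15 to -0.90 in Shunt against TAC. With the replicate block 3, 5, 0 and 5 chains were called in sham against WT, TAC against sham, Shunt against sham and Shunt against TAC, and the log2 ratio differed by -0.0070, 1.02, -0.018 and -1.03; in TAC against sham Myh7b was the 1 chain whose call the block changed.

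Single genes changed sign where no call was made, except Myl7. Myh9 in sham against WT was 0.0042 with DESeq2 and with relative log expression factors, 0.0058 with upper quartile factors, 0.012 with no filter, 0.0052 with 1 CPM in 3 libraries, 0.0061 with the 2 groups alone, 0.13 with the atrial covariate and 0.13 where Arntl was above Dbp. Myh14 in Shunt against sham was 0.0059 with limma-voom and 0.0053 with the replicate block. With the Y-linked covariate Shunt against sham gave 0.25 for Myh6, 0.057 for Myh7, -0.47 for Myh9 and -0.053 for Myh10, and TAC against sham gave 0.029 for Myh7b. The Shunt values under that covariate use a slope set mainly by the split within TAC, so their signs are not informative on Shunt. Myh11 in TAC against sham was 0.024 where Arntl was above Dbp, and Myl7 in sham against WT was -0.099 with the atrial covariate. Without a library Myh9 ranged from -0.036 to 0.033 in sham against WT and from -0.024 to 0.12 in Shunt against sham, and Myh14 from -0.052 to 0.10 in TAC against sham, from -0.10 to 0.055 in Shunt against sham and from -0.10 to 0.0042 in Shunt against TAC. Exon lengths of the longest coding transcript moved 16 group levels per kilobase by more than the SD. Of the other results on single genes, 2238 values stayed as reported, 369 were no longer called and 12 became called. The causes of these changes were not tested. Depth limits mainly Mir208b and the skeletal chains.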
